A study of Mus musculus with 14 samples.

Results

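The 10 genes described here encode the sensors, adaptors and kinases through which macrophages read bacterial cell walls and Toll-like receptor ligands, with a pair of inhibitors of the same signalling. They were taken by name from a table of 24982 genes and are *Nod1*, *Nod2*, *Ripk2*, *Myd88*, *Irak1*, *Irak2*, *Irak3*, *Irak4*, *Traf6* and *Tollip*. Their expression was measured by RNA sequencing of mature Ly6C- macrophages sorted from the colonic lamina propria of single mice aged 5 weeks. All of the mice were C57BL/6 carrying *Cdcs1*, a locus that raises susceptibility to colitis. The WT group (*Cdcs1* alone) held 5 mice, IL10RAKO (*Il10ra* -/-) 4, DKO (*Il10ra* -/-, *Ccr2* -/-) 4 and CCR2KO (*Ccr2* -/-) 1. The deletions are germline, so every cell of the mouse lacks the gene, and the labels give no sex, litter or batch. The study reports spontaneous colitis in IL10RAKO mice and a less severe form in DKO, with no histologic signs in WT or CCR2KO mice. Loss of *Il10ra* in the macrophages and inflammation of the colon therefore cannot be told apart here. Elsewhere the study uses WT for mice heterozygous for *Il10ra* and *Ccr2*, while the labels of these libraries give *Cdcs1* only.

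NOD1 and NOD2 are cytosolic receptors for fragments of bacterial peptidoglycan, and both pass their signal to the kinase RIPK2. Toll-like receptors and receptors of the interleukin-1 family instead recruit the adaptor MYD88, which assembles IRAK4 with IRAK1 or IRAK2 and hands the signal to the ubiquitin ligase TRAF6. The RIPK2 and TRAF6 branches meet at the TAK1 and IKK kinases that activate NF-kappaB. IRAK3 (IRAK-M) and TOLLIP restrain the MYD88 branch, and interleukin-10, which signals through IL10RA and STAT3, restrains the response of intestinal macrophages to bacteria. Loss-of-function variants of NOD2 are a known risk factor for Crohn's disease.

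In the mice lacking *Il10ra*, both sensors and the kinase *Irak2* had the largest increases among these genes, followed by *Traf6*. The libraries that stand in the deposited pseudocount table (n = 4 mice per genotype) were tested by quasi-likelihood in edgeR, with Benjamini-Hochberg adjustment over 13136 genes. An adjusted p under 0.05 counted as a call. In IL10RAKO against WT macrophages 7 of the 10 genes were called, all of them higher, where 15.8% of all tested genes were called, 8.7% higher and 7.1% lower. In DKO against WT 6 of the 10 were called, again all higher, with 18.5% of all genes called, 9.23% higher and 9.22% lower. The median log2 fold change of the 10 genes was 0.80 in IL10RAKO and 0.86 in DKO, beside medians over all tested genes of -0.07 and -0.06. All 10 passed the filter on low counts. The 2 comparisons share the WT mice.

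Levels are in CPM, which scales each library to 1000000 reads over the genes tested and then applies the TMM factors between libraries. Between 12153000 and 21216468 reads per library were counted on genes, and the smallest level that 3 reads give was 0.124 to 0.22 CPM, a floor that covers counting error only. The targeted genes matched the labels. *Il10ra* was at 181.9 to 379.6 CPM in the WT and CCR2KO libraries and at 3.41 to 11.2 CPM in IL10RAKO and DKO, and *Ccr2* was at 361 to 759 CPM in WT and IL10RAKO and at 3.92 to 6.68 CPM in DKO and CCR2KO. WT mouse 11 stood apart, with 11670 genes detected where the other WT libraries had 13485 to 15402, and a median Spearman correlation across genes of 0.865 to the other WT libraries where these had 0.933 to 0.943. It has no values in the pseudocount table, for which no reason is given, and it and the single CCR2KO library entered no main test.

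All 12 macrophage markers examined, *Csf1r* and *Fcgr1* among them, had reads in every group, with a summed level of 59170 to 73510 CPM in WT mice, 74220 to 103700 in IL10RAKO mice and 64640 to 85490 in DKO. Most of that sum was RNA of *Cd74*, *H2-Aa*, *H2-Ab1* and *H2-Eb1*, and single markers went different ways. *H2-Aa*, *H2-Ab1* and *H2-Eb1* lay above the WT range in every IL10RAKO mouse, while *Csf1r* and *Fcgr1* overlapped it in both knockout groups. *Adgre1* was lower in every DKO mouse (228.1 to 519.0 CPM) than in any WT mouse (641.2 to 885.4). *Cx3cr1* was lower there too (134.8 to 216.5 CPM, against 318.6 to 431.2 in WT mice). Both overlapped WT in IL10RAKO mice. The markers of other cells also differed between the groups compared. The 6 stromal markers summed to 294.2 to 577.1 CPM in WT mice, 14.99 to 53.7 in IL10RAKO mice and 16.1 to 67.0 in DKO, with none at 0. The 5 monocyte markers summed to 213.6 to 370.4 CPM in WT mice, 428.7 to 1108 in IL10RAKO mice and 493.8 to 726.4 in DKO. The 6 neutrophil markers summed to 75.2 to 122.1 CPM in WT mice, 137.3 to 304 in IL10RAKO mice and 155.6 to 263.2 in DKO, and *Ly6g* was at or below 0.747 CPM in every mouse. *Csf3r* made up most of the neutrophil sum in each group. *S100a8*, *S100a9* and *Cxcr2*, each at or below 42.85 CPM, also lay above the WT range in both knockout groups. The 5 dendritic cell markers summed to 215.5 to 1024 CPM in WT mice, 1422 to 1854 in IL10RAKO mice and 1010 to 1769 in DKO. *Ccr7* made up most of that sum, with at most 921.1 CPM in a WT mouse, at least 1288 in IL10RAKO and at least 973.5 in DKO. *Flt3*, *Zbtb46* and *Itgae* overlapped between WT and both knockout groups. *Xcr1* overlapped between WT and DKO and was higher in IL10RAKO. The 7 epithelial markers summed to 44.5 to 1014 CPM in WT mice, 37.3 to 167.6 in IL10RAKO mice and 132.4 to 191.3 in DKO, and to 2750 CPM in WT mouse 11. Marker sums of T and NK cells, of B and plasma cells and of endothelial cells overlapped between WT and both knockout groups. The part of these cells in the differences below was not tested, and in sorted bulk RNA fewer cells of a type and less RNA per cell cannot be told apart. The mean log2 CPM of the 6 stromal markers, taken without TMM factors, separates WT from both knockout groups by itself. With it as a covariate, none of the 10 genes was called in IL10RAKO against WT (edgeR, 14 of all genes called). Only *Nod1* was called in DKO against WT (log2 fold change 2.39, edgeR adjusted p = 0.0498, 50 of all genes called). Every call among the 10 genes other than *Nod1* in DKO is therefore lost in that fit, in which genotype and stromal RNA cannot be told apart.

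Sequence just upstream of the transcription start is shown for the 4 genes with the largest fold changes and for *Myd88*, which held matches to a pair of motifs. The STAT and NF-kappaB motifs were searched because interleukin-10 acts through STAT3 and bacterial ligands through NF-kappaB. Motifs of interferon regulatory factors, AP-1 and ETS factors were searched beside them. The sequences are from RefSeq for GRCm38.p6, which held windows of 300 bases around the start for 9 of the 10 genes, 12 windows in all. *Ripk2* had none. Each run reads 5′ to 3′ on the strand of the gene and ends at the start, or before the first base annotated as an exon. Capitals mark matches to the motifs searched. They are *Nod1* (chr6:54971662-54971911, minus strand, upstream of the inner of its pair of starts), *Nod2* (chr8:88647097-88647314, plus), *Irak2* (chr6:113638217-113638466, plus), *Traf6* (chr2:101678170-101678419, plus) and *Myd88* (chr9:119340042-119340268, minus).
Nod1: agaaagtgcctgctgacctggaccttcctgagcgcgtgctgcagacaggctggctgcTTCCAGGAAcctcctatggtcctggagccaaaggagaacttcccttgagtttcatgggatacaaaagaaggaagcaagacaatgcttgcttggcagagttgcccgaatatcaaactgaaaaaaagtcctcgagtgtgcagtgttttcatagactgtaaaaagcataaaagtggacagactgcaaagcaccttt
Nod2: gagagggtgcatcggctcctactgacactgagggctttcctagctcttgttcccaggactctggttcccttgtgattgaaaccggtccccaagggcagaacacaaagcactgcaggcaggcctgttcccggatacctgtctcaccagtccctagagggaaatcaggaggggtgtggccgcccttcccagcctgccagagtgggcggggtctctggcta
Irak2: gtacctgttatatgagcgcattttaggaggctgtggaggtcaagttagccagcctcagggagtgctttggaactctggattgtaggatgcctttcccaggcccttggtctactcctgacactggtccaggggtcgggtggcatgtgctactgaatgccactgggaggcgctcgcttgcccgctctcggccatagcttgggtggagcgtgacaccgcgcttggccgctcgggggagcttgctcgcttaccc
Traf6: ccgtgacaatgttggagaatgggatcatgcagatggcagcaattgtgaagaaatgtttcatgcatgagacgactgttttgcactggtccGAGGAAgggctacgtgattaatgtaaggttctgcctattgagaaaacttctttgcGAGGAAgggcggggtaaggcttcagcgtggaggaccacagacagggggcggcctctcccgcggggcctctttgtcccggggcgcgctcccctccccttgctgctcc
Myd88: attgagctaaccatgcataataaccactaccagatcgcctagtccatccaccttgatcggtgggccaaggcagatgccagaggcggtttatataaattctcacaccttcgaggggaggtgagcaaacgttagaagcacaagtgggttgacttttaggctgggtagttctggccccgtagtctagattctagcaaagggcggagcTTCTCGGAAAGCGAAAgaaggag

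On both strands the STAT motif TTCNNNGAA was found in 2 of the 9 genes with a window and in 8.3% of all 32851 windows. It lay 193 bases upstream of the inner *Nod1* start and 46 bases upstream of the RefSeq start of *Myd88*. The *Myd88* match overlaps a match to the interferon regulatory factor motif, 40 bases upstream, which 1 of 9 genes and 3.44% of all windows held. *Traf6* held the ETS core GAGGAA, the core bound by PU.1, at 161 and 106 bases upstream, and *Irak3* held it 33 bases past a start. That core was present in 28.3% of all windows. The NF-kappaB consensus was matched in 1 of the 9 genes, *Irak1*, and in 8.46% of all windows, and the AP-1 motif TGANTCA in 0 of the 9 and in 7.81% of all windows. The windows of *Nod2* and *Irak2*, and that of the outer *Nod1* start, held no match to the 5 motifs. A match is a run of letters and not a measured binding site.

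The cytosolic sensors were both higher in the mice lacking *Il10ra*. *Nod1* (NOD1, chromosome 6, 54923949 to 54972612, minus strand, GRCm38) stood at 38.3, 44.7, 35.99 and 33.7 CPM in WT mice 4, 5, 10 and 13. It stood at 100.1, 113, 115 and 83.0 CPM in IL10RAKO mice 1, 2, 7 and 8, and at 82.4, 127.7, 135.2 and 161.2 CPM in DKO mice 3, 9, 12 and 14. Every knockout mouse lay above every one of these WT mice. The log2 fold change was 1.43 (SE 0.199, 2.69-fold) in IL10RAKO against WT, with an edgeR adjusted p of 0.000227. In DKO against WT it was 1.73 (SE 0.201, 3.32-fold), with an edgeR adjusted p of 4.02e-05. WT mouse 11 stood at 101.6 CPM, within the range of the knockout mice, and adding it reduced the values to 1.02 (edgeR adjusted p = 0.0417) in IL10RAKO and 1.32 (edgeR adjusted p = 0.00995) in DKO. The CCR2KO mouse stood at 33.5 CPM, just under the lowest WT mouse.

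*Nod2* (NOD2, chromosome 8, 88647315 to 88688474, plus strand), which binds muramyl dipeptide, was the scarcest of the 10 transcripts. It stood at 13.0, 10.6, 6.83 and 7.19 CPM in WT mice 4, 5, 10 and 13, from 108 to 273 reads. In IL10RAKO mice 1, 2, 7 and 8 it stood at 37.0, 32.9, 24.8 and 34.5 CPM, and in DKO mice 3, 9, 12 and 14 at 26.9, 34.7, 19.2 and 23.5 CPM. The knockout groups overlapped each other and neither overlapped WT. Against WT the log2 fold change of *Nod2* was 1.78 in IL10RAKO (SE 0.25, 3.43-fold, edgeR adjusted p = 0.000241) and 1.47 in DKO (SE 0.249, 2.77-fold, edgeR adjusted p = 0.000862). WT mouse 11 had 16 reads (1.17 CPM), below all other libraries, and the CCR2KO mouse had 9.92 CPM, within the WT range. With WT mouse 11 in the fit, *Nod2* was at 2.05 in IL10RAKO (edgeR adjusted p = 0.008) and 1.75 in DKO (edgeR adjusted p = 0.0183).

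**Figure D1:**
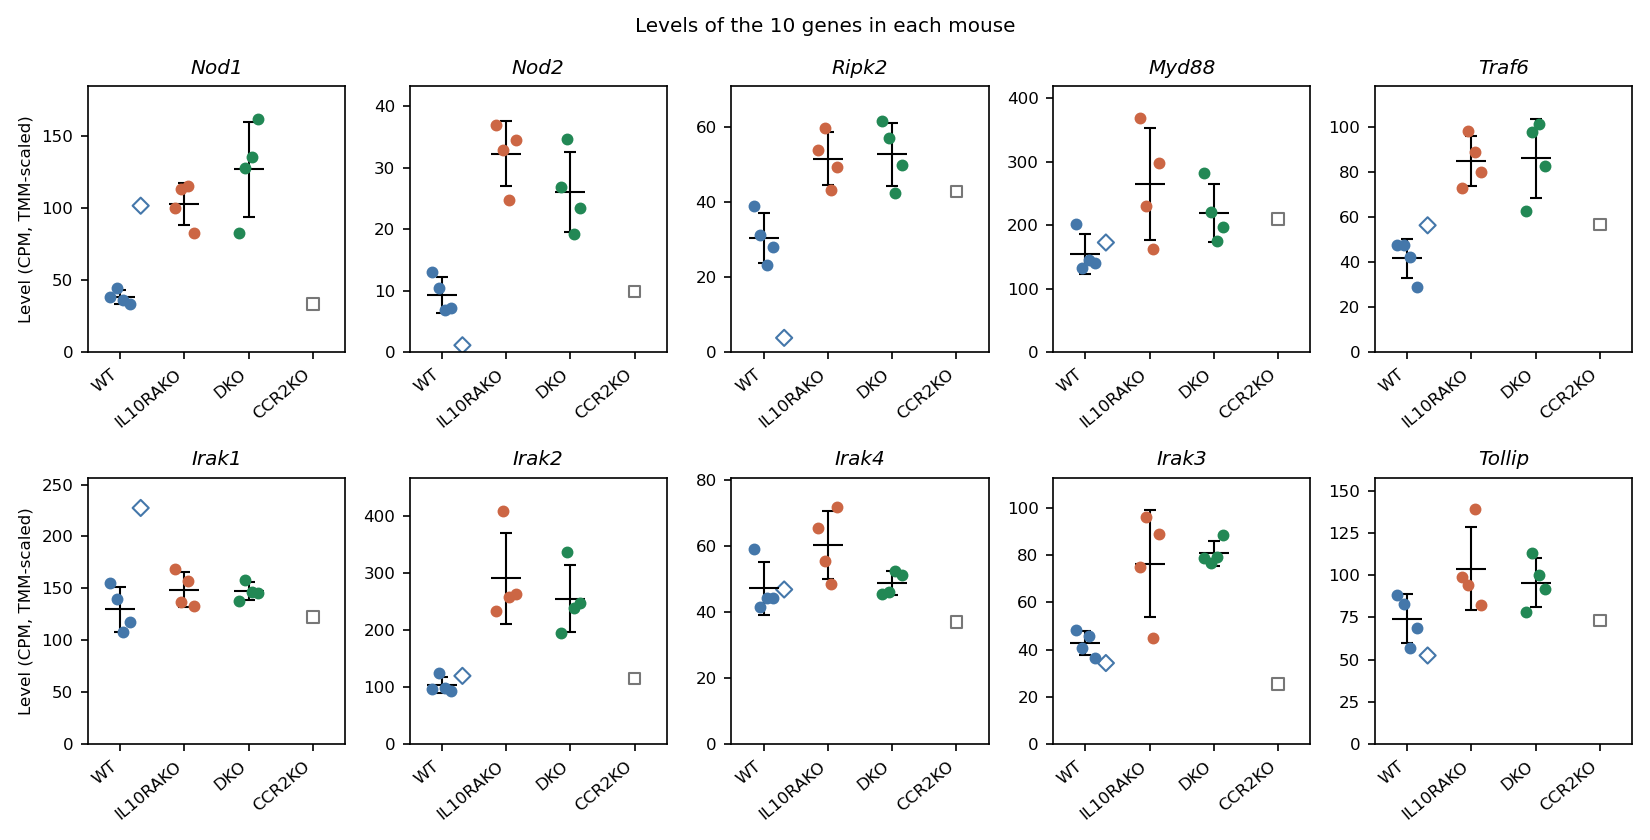
Level of each gene (y axis, TMM-scaled CPM, linear from 0) in each mouse by genotype (x axis). Filled points are the 12 mice of the fit with their mean and SD (n = 4), the open diamond is WT mouse 11 and the open square the CCR2KO mouse. *Nod1*, *Nod2*, *Ripk2*, *Irak2* and *Traf6* do not overlap between the filled WT points and either knockout group. The share of all tested genes without such overlap is not given here, so this is a description only.

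*Ripk2* (RIPK2, chromosome 4, 16122733 to 16163647, minus strand), the kinase shared by both sensors, rose with smaller fold changes than theirs, a difference that was not tested. Its level was 38.9, 31.3, 23.2 and 28.1 CPM in WT mice 4, 5, 10 and 13, 53.7, 59.7, 43.1 and 49.3 CPM in IL10RAKO mice 1, 2, 7 and 8, and 61.5, 57.0, 42.4 and 49.8 CPM in DKO mice 3, 9, 12 and 14. Every knockout mouse lay above every WT mouse of the fit. The log2 fold change was 0.76 in IL10RAKO (SE 0.189, 1.69-fold, edgeR adjusted p = 0.0132) and 0.79 in DKO (SE 0.189, 1.73-fold, edgeR adjusted p = 0.00899). WT mouse 11 had 53 reads (3.88 CPM), and with it in the fit *Ripk2* was not called in IL10RAKO (1.04, edgeR adjusted p = 0.126) or DKO (1.07, edgeR adjusted p = 0.107). With library totals in place of TMM, *Ripk2* was not called in IL10RAKO (0.45, edgeR adjusted p = 0.087). The CCR2KO mouse stood at 42.8 CPM, above the WT mice and just above the lowest DKO mouse.

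*Myd88* (MYD88, chromosome 9, 119335934 to 119341411, minus strand), the adaptor of most Toll-like receptors, had the highest mean level per length of the 10 genes. Its level was 201.7, 132.9, 145.7 and 140.3 CPM in WT mice 4, 5, 10 and 13, and 368.8, 231, 162.3 and 297.8 CPM in IL10RAKO mice 1, 2, 7 and 8. In DKO mice 3, 9, 12 and 14 it was 282.9, 221.7, 176.1 and 197.9 CPM. Both knockout groups overlapped WT, since WT mouse 4 lay above IL10RAKO mouse 7 and above DKO mice 12 and 14. In the CCR2KO mouse *Myd88* was at 210.3 CPM, above the WT mice of the fit and within the DKO range. WT mouse 11 had 173 CPM. *Myd88* was called in IL10RAKO (log2 fold change 0.77, SE 0.239, 1.71-fold, edgeR adjusted p = 0.041) and not in DKO (0.50, 95% interval -0.0074 to 1.01, edgeR adjusted p = 0.166). With library totals in place of TMM, *Myd88* was not called in IL10RAKO (0.45, edgeR adjusted p = 0.155). The IL10RAKO call was kept in 4 of 12 fits that each left out 1 mouse. It was lost without IL10RAKO mice 1 (0.58, edgeR adjusted p = 0.141), 2 (0.84, 0.0539) or 8 (0.72, 0.104), without WT mice 5 (0.71, 0.102), 10 (0.75, 0.0875) or 13 (0.73, 0.0983), and without DKO mice 9 (0.78, 0.0556) or 14 (0.78, 0.0516). In the exons of *Myd88*, 290 bases overlap *Acaa1a* on the opposite strand, and reads there cannot be assigned because the strand setting of the counting is not stated. *Myd88* lies 4.76 Mb from *Ccr2* on chromosome 9, and in DKO and CCR2KO mice an effect of linked sequence from the B6.129S4 stock of the *Ccr2* allele cannot be told apart from the loss of *Ccr2*.

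Of the IRAK kinases that promote signalling, *Irak2* was called and *Irak1* and *Irak4* were not. *Irak2* (IRAK2, chromosome 6, 113638467 to 113695026, plus strand), which sustains signalling after the first response, stood at 97.2, 125.3, 98.6 and 93.6 CPM in WT mice 4, 5, 10 and 13. It stood at 233.7, 409.8, 257.7 and 263.1 CPM in IL10RAKO mice 1, 2, 7 and 8, and at 195.5, 336.7, 239.7 and 248.5 CPM in DKO mice 3, 9, 12 and 14. All knockout mice lay above all WT mice, WT mouse 11 (119.7 CPM) and the CCR2KO mouse (115 CPM) included. The log2 fold change of *Irak2* was 1.49 in IL10RAKO (SE 0.211, 2.81-fold, edgeR adjusted p = 0.000249) and 1.30 in DKO (SE 0.21, 2.46-fold, edgeR adjusted p = 0.000612). Exons of *Irak2* overlap *Gm43963* on the opposite strand over 196 bases.

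*Irak1* (IRAK1, chromosome X, 74013914 to 74023918, minus strand) and *Irak4* (IRAK4, chromosome 15, 94543643 to 94581815, plus strand), the kinases of the first complex with MYD88, were not called in either comparison. *Irak1* ranged from 107.5 to 155.6 CPM in WT mice, from 132.9 to 169 in IL10RAKO mice and from 137.3 to 158.4 in DKO. Its log2 fold change was 0.20 in IL10RAKO (95% interval -0.12 to 0.52, edgeR adjusted p = 0.418) and 0.18 in DKO (-0.14 to 0.50, edgeR adjusted p = 0.449). These intervals leave out a change of the size measured for *Irak2*. With library totals in place of TMM the direction of *Irak1* turned, to -0.11 in IL10RAKO and -0.07 in DKO. *Irak4* ranged from 41.5 to 59.2 CPM in WT mice, from 48.5 to 71.8 in IL10RAKO mice and from 45.4 to 52.6 in DKO. Its log2 fold change was 0.35 in IL10RAKO (95% interval -0.0091 to 0.71, edgeR adjusted p = 0.183) and 0.05 in DKO (-0.31 to 0.41, edgeR adjusted p = 0.884), and the latter became -0.20 with library totals. WT mouse 11 stood at 227.4 CPM for *Irak1*, above all other libraries, and at 46.9 CPM for *Irak4*. Exons of *Irak4* overlap *Twf1* on the opposite strand over 395 bases.

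*Traf6* (TRAF6, chromosome 2, 101678429 to 101701669, plus strand), the ubiquitin ligase downstream of the IRAK kinases, rose to about the same level in both knockout groups. Its level was 47.6, 48.0, 42.3 and 29.2 CPM in WT mice 4, 5, 10 and 13, 73.0, 98.5, 89.0 and 80.0 CPM in IL10RAKO mice 1, 2, 7 and 8, and 63.1, 98.0, 101.6 and 82.6 CPM in DKO mice 3, 9, 12 and 14. Neither knockout group overlapped the WT mice, WT mouse 11 (56.5 CPM) or the CCR2KO mouse (56.8 CPM). The log2 fold change of *Traf6* was 1.03 in IL10RAKO (SE 0.198, 2.04-fold, edgeR adjusted p = 0.00266) and 1.05 in DKO (SE 0.198, 2.06-fold, edgeR adjusted p = 0.00203). In all, 4 of the 6 adaptors and kinases were called higher in IL10RAKO and 3 of 6 in DKO, beside 2 of 2 sensors in each. Of all tested genes, 8.7% were called higher in IL10RAKO and 9.23% in DKO. The 4 include *Myd88*, whose call was kept in 4 of 12 fits that each left out 1 mouse.

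Of the inhibitors, 1 of 2 was called against WT in IL10RAKO and in DKO, beside 15.8% and 18.5% of all tested genes called. *Irak3* (IRAK3, chromosome 10, 120141648 to 120202130, minus strand), an IRAK without strong kinase activity that damps Toll-like receptor signalling in macrophages, stood at 48.1, 40.8, 45.7 and 36.4 CPM in WT mice 4, 5, 10 and 13. It stood at 75.2, 96.2, 45.0 and 89.0 CPM in IL10RAKO mice 1, 2, 7 and 8, and at 78.8, 76.6, 79.4 and 88.3 CPM in DKO mice 3, 9, 12 and 14. IL10RAKO mouse 7 fell within the WT range while the other knockout mice lay above it. The log2 fold change of *Irak3* was 0.83 in IL10RAKO (SE 0.206, 1.78-fold, edgeR adjusted p = 0.0127) and 0.92 in DKO (SE 0.206, 1.89-fold, edgeR adjusted p = 0.00637), and the IL10RAKO call was lost with library totals (0.51, edgeR adjusted p = 0.0744). The CCR2KO mouse had 25.4 CPM of *Irak3*, the lowest level of all libraries, and WT mouse 11 had 34.3 CPM. Exons of *Irak3* overlap *Gm47009* and *Tmbim4* on the opposite strand, over at most 192 bases. *Tollip* (TOLLIP, chromosome 7, 141874813 to 141918507, minus strand), which binds IRAK1 and ubiquitin, was not called. It ranged from 56.6 to 88.3 CPM in WT mice, from 82.4 to 139.1 in IL10RAKO mice and from 77.9 to 112.9 in DKO. Its log2 fold change was 0.48 in IL10RAKO (95% interval 0.06 to 0.90, edgeR adjusted p = 0.116) and 0.37 in DKO (-0.05 to 0.79, edgeR adjusted p = 0.224).

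**Figure D2:**
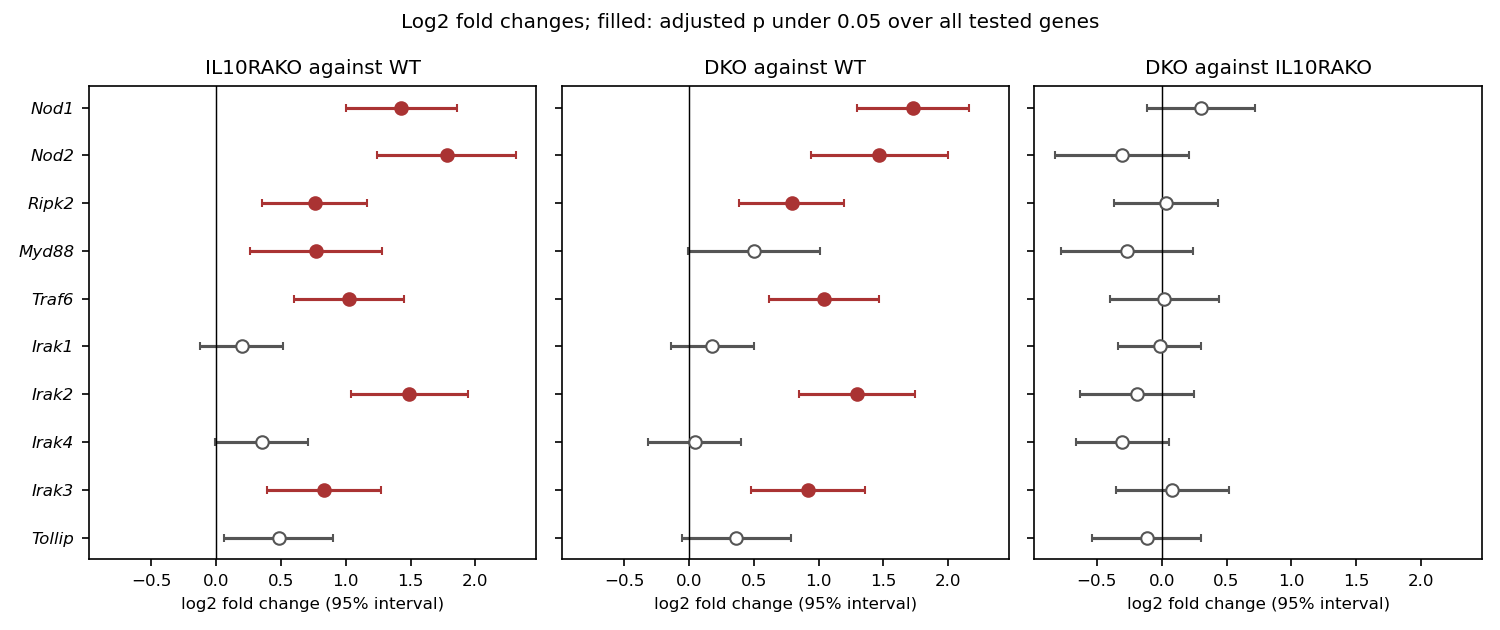
Log2 fold change of each gene (x axis) with its 95% interval from the edgeR fit, for IL10RAKO against WT, DKO against WT and DKO against IL10RAKO (n = 4 mice per genotype). Filled points have an adjusted p under 0.05, which holds for 7, 6 and 0 of the 10 genes in that order.

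To examine whether the loss of *Ccr2* changed these genes in mice already lacking *Il10ra*, DKO was compared with IL10RAKO. None of the 10 genes was called, where 0.0457% of all tested genes were called (6 of 13136), 0.0152% higher and 0.0305% lower. None had an unadjusted p under 0.05, while 388 of all genes did, and DESeq2 also called none of the 10. The log2 fold changes lay between -0.31 (*Nod2*) and 0.30 (*Nod1*), and 4 of them were above 0 and 6 below. The 95% intervals of all 10 genes lay within a log2 change of 1 in either direction, with -0.83 for *Nod2* and 0.72 for *Nod1* as the outermost bounds. The smallest unadjusted p was that of *Irak4* (log2 fold change -0.30, 95% interval -0.66 to 0.06), at 0.091 before and 1 after adjustment in edgeR. The mice of the pair of genotypes overlapped in all 10 genes, a description given without the share over all tested genes. *Ripk2* (0.03), *Traf6* (0.02) and *Irak1* (-0.02) had the smallest differences in this comparison.

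Genes of unequal length were compared as CPM per kilobase of annotated exon. In WT macrophages *Myd88* was the highest (60.2 ± 12.2, SD, n = 4), followed by *Irak1* (27.5 ± 4.60) and *Irak2* (23.5 ± 3.30), while *Nod1* (7.52 ± 0.931), *Traf6* (5.30 ± 1.11) and *Nod2* (1.88 ± 0.587) were the lowest. *Tollip* (14.7 ± 2.83), *Irak3* (11.6 ± 1.41), *Ripk2* (10.8 ± 2.33) and *Irak4* (9.43 ± 1.60) lay between. *Nod2* lay below *Ripk2* in every mouse, while the WT ranges of *Nod1* (6.63 to 8.80) and *Ripk2* (8.25 to 13.8) overlapped. Of the 9 pairs of neighbours in this WT order, 5 had overlapping ranges over mice, namely *Irak1* with *Irak2* and the run from *Tollip* through *Irak3*, *Ripk2* and *Irak4* to *Nod1*.

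In IL10RAKO the order was *Myd88* (102.9 ± 34.4), *Irak2* (66.0 ± 18.2), *Irak1* (31.6 ± 3.61), *Irak3* (20.8 ± 6.16), *Tollip* (20.5 ± 4.86), *Nod1* (20.2 ± 2.91), *Ripk2* (18.3 ± 2.495), *Irak4* (12.0 ± 2.05), *Traf6* (10.8 ± 1.40) and *Nod2* (6.44 ± 1.05). *Irak2* thus passed *Irak1*, whose range it did not overlap. *Nod1* moved from position 8 in WT to 6 in IL10RAKO and 4 in DKO (24.9 ± 6.46), where its range overlapped those of *Irak1* and *Irak3*. By the mean, *Nod2* (5.20 ± 1.31 in DKO) stayed last and *Myd88* (85.3 ± 17.9 in DKO) first in each genotype. The ranges of *Myd88* and *Irak2* overlapped in IL10RAKO (62.99 to 143.2 and 52.97 to 92.88) and in DKO (68.37 to 109.8 and 44.31 to 76.32). Ranges of neighbours overlapped in 5 of 9 pairs in IL10RAKO and in 6 of 9 in DKO.

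**Figure D3:**
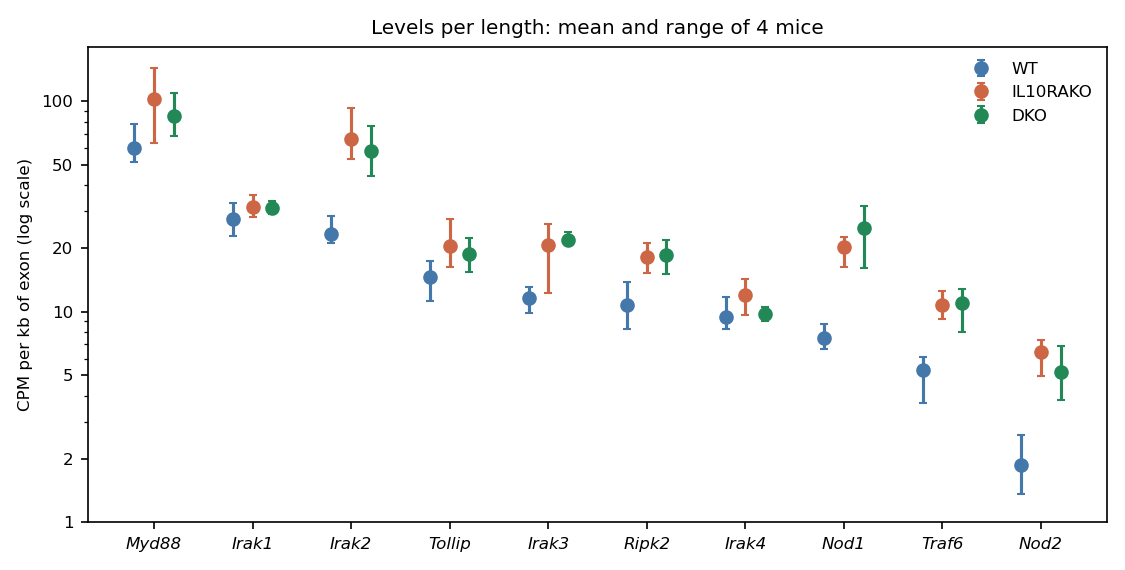
Level of each gene per length (y axis, CPM per kilobase of exon, log scale) in WT, IL10RAKO and DKO macrophages, as the mean and range over 4 mice, in the WT order of means. *Irak2* lies below *Irak1* in WT and above it in both knockout groups.

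Ratios of paired genes within a library do not depend on the scaling between libraries, and they are given here per length and as a description. The ratio of *Irak2* to *Irak1* was 0.668 to 0.980 in WT (median 0.908), 1.48 to 3.21 in IL10RAKO (median 1.94) and 1.52 to 2.27 in DKO (median 1.78). WT mouse 11 (0.563) and the CCR2KO mouse (1.01) lay below all mice lacking *Il10ra*. The ratio of *Ripk2* to *Nod2* was 5.28 to 6.96 in WT mice and lower in the mice lacking *Il10ra*, at 2.54 to 3.23 in IL10RAKO and 2.92 to 4.06 in DKO, with 5.90 in WT mouse 11 and 7.68 in the CCR2KO mouse. These ranges did not overlap between WT and the knockout groups, so *Nod2* transcripts were higher relative to those of its kinase in every mouse lacking *Il10ra*.

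The ratio of *Irak3* to *Irak4* was 1.11 to 1.41 in WT (median 1.23), 1.26 to 2.36 in IL10RAKO (median 1.63) and 2.06 to 2.37 in DKO (median 2.31). IL10RAKO overlapped WT and DKO did not. The ratio of *Nod2* to *Nod1* overlapped among the genotypes, with medians of 0.228 in WT mice, 0.334 in IL10RAKO mice and 0.211 in DKO. It was 0.0117 in WT mouse 11, under every other library. The ratio of *Tollip* to *Myd88* also overlapped, with medians of 0.236, 0.175 and 0.248 in the same order.

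**Figure D4:**
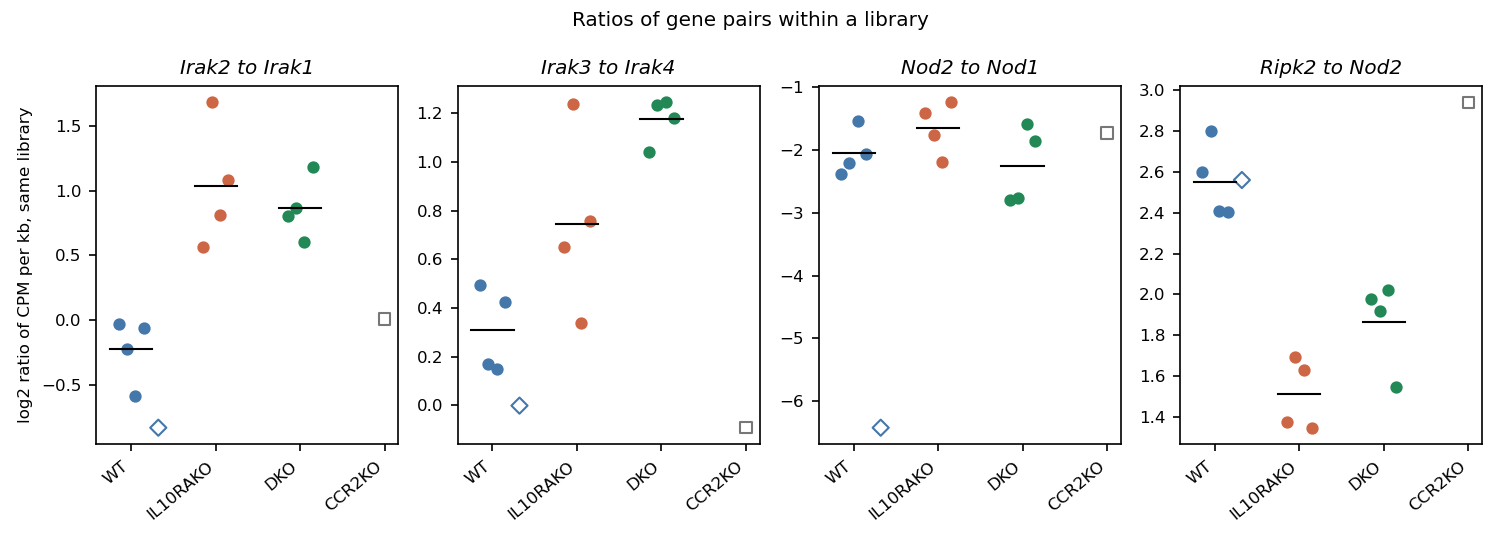
Log2 ratio of CPM per kilobase of gene pairs within the same library (y axis) by genotype (x axis). Filled points are the 12 mice of the fit with the mean as a bar, the open diamond is WT mouse 11 and the open square the CCR2KO mouse. *Irak2* to *Irak1* and *Ripk2* to *Nod2* do not overlap between WT and the knockout mice.

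Variation between mice of a genotype was moderate. The coefficient of variation of the CPM levels had a median over the 10 genes of 18.1% in WT (12.2 to 31.3%), 16.7% in IL10RAKO (11.4 to 33.4%) and 18.1% in DKO (5.89 to 25.9%). *Nod2* varied the most among WT mice, *Myd88* among IL10RAKO mice and *Nod1* among DKO mice, while *Irak1* varied the least in both knockout groups and *Irak3* in WT. After subtracting the genotype means, *Nod2* and *Ripk2* went together over the 12 libraries (Pearson r 0.858), as did *Irak1* and *Tollip* (0.784), while *Irak3* and *Tollip* (-0.573) and *Nod1* and *Myd88* (-0.563) went apart. These pairs had the highest and the lowest values among all pairs of the 10 genes, and were picked as extremes after the values were seen. They are descriptions over libraries that also differ in depth and marker RNA. The genes with levels most like those of *Nod1*, the gene with the smallest p in IL10RAKO against WT, were *Arl5a* (Pearson r of log2 CPM 0.974), *Rab27a* (0.966) and *Prdm1* (0.964) over the same 12 libraries, which include the genotype difference.

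The 10 genes were set beside the other genes of the connected pathways, from lists that were also chosen with earlier results known. Among Toll-like receptors and their co-receptors, 4 of 18 tested genes were called higher in IL10RAKO and none lower, while 4 were higher and 1 lower in DKO. The other 14 and 13 were not called, and of all tested genes 15.8% and 18.5% were called. *Tlr2*, the receptor of bacterial lipopeptides, stood at 218.6 ± 19.6 CPM in WT mice, 754.8 ± 212.1 in IL10RAKO mice and 725.1 ± 124.7 in DKO (SD, n = 4), with log2 fold changes of 1.79 (edgeR adjusted p = 4.81e-05) and 1.73 (edgeR adjusted p = 4.92e-05). *Cd14*, which passes lipopolysaccharide to TLR4, rose by 1.91 in IL10RAKO (edgeR adjusted p = 5.61e-05) and 1.74 in DKO (edgeR adjusted p = 9.07e-05). The other two were *Tlr6* (1.90 and 1.79) and *Tlr11* (2.47 and 2.11), and the gene called lower in DKO was *Ly96* (-0.81), which encodes the MD-2 partner of TLR4. Genes named here beyond *Tlr2* and *Cd14*, and those given below without an adjusted p, were chosen after their values were seen. The median log2 fold change of this list was 0.25 in IL10RAKO and 0.15 in DKO.

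The receptors of the interleukin-1 family that use MYD88 had median log2 fold changes below 0, at -1.23 in IL10RAKO and -1.17 in DKO. Of 6 tested, 1 was called lower in each comparison and none higher, a share near the 15.8% and 18.5% of all genes called. *Il18rap* (0.44 and 0.32) and *Il1rl2* (0.35 and 0.32) had values above 0 in both and were not called. In IL10RAKO this was *Il1rl1*, the interleukin-33 receptor, at 0.745 to 7.06 CPM in WT and 0.303 to 1.37 in IL10RAKO (log2 fold change -2.40, edgeR adjusted p = 0.0407), with -1.45 in DKO (edgeR adjusted p = 0.18). In DKO it was *Il1rap* (-0.90), the shared co-receptor. *Il1rl1* is also expressed by cells other than macrophages, and its levels here are near the floor of the counts. Of the other adaptors with a TIR domain, 4 of 5 passed the filter and none was called against WT by edgeR or DESeq2, with 0 at an unadjusted p under 0.05. *Myd88* was the only adaptor of that kind with a call in IL10RAKO, kept in 4 of 12 fits that left out a mouse. Its difference from the other adaptors was not tested. *Sarm1* was filtered out.

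Among 16 partners of the NOD receptors, 6 were called higher in IL10RAKO and 5 in DKO, and none lower, beside 15.8% and 18.5% of all tested genes called. *Slc15a3*, a lysosomal transporter that can carry muramyl dipeptide to the cytosol, stood at 66.6 ± 14.99 CPM in WT mice, 165.9 ± 27.8 in IL10RAKO mice and 153.5 ± 21.6 in DKO (SD, n = 4). Its log2 fold change was 1.32 (edgeR adjusted p = 0.000279) in IL10RAKO and 1.20 (edgeR adjusted p = 0.000483) in DKO. *Cyba*, a subunit of the NADPH oxidase, was at 0.98 (edgeR adjusted p = 0.00208) and 1.02 (edgeR adjusted p = 0.00135). In DKO the remaining 3 were *Card9* (1.21), which relays NOD2 signals to MAP kinases, and *Rbck1* (0.49) and *Sharpin* (0.54), both subunits of the linear ubiquitin ligase. The median of the list was 0.52 in IL10RAKO and 0.32 in DKO. The other transporters of the list were not called, with *Slc15a4* at -0.15 in each comparison and *Slc15a2* at 0.75 and -0.69, and in all 10 of the 16 partners in IL10RAKO and 11 in DKO were not called.

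Of 17 genes of the ubiquitin, TAK1 and IKK machinery, 2 were called higher in IL10RAKO and 4 in DKO, and none lower, which is near the 15.8% and 18.5% of all genes called. *Ikbkb*, the kinase subunit that phosphorylates the NF-kappaB inhibitor, was at 0.52 (edgeR adjusted p = 0.0179) and 0.45 (edgeR adjusted p = 0.0333). *Tifa*, which binds TRAF6, was at 0.64 (edgeR adjusted p = 0.0452) and 0.61 (edgeR adjusted p = 0.0496). In DKO *Traf3* (1.02) and *Peli2* (1.45) were also called. The median of the list was 0.22 in each comparison.

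Of 24 inhibitors of Toll-like receptor, interleukin-1 receptor and NOD signalling, 23 were tested. In IL10RAKO 9 were called higher and none lower, and in DKO 9 were higher and 1 lower. The other 14 and 13 were not called, and of all tested genes 15.8% and 18.5% were called. *Il1r2*, the decoy receptor of interleukin-1, had the largest change of those named, at 184.5 ± 44.5 CPM in WT mice, 924.2 ± 138 in IL10RAKO mice and 768.2 ± 164.4 in DKO (SD, n = 4), with log2 fold changes of 2.32 (edgeR adjusted p = 6.68e-06) and 2.06 (edgeR adjusted p = 1.77e-05). *Tnip1*, a partner of the deubiquitinase A20, was at 1.30 (edgeR adjusted p = 0.000458) and 1.20 (edgeR adjusted p = 0.000766). The gene called lower in DKO was *Atf3* (-1.09), a transcriptional repressor of inflammatory genes. The median was 0.48 in IL10RAKO and 0.55 in DKO, beside 0.83 and 0.92 for *Irak3* and 0.48 and 0.37 for *Tollip*. Between DKO and IL10RAKO, none of the 84 tested genes of the 6 lists was called by edgeR or DESeq2, and 4 had an unadjusted p under 0.05.

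**Figure D5:**
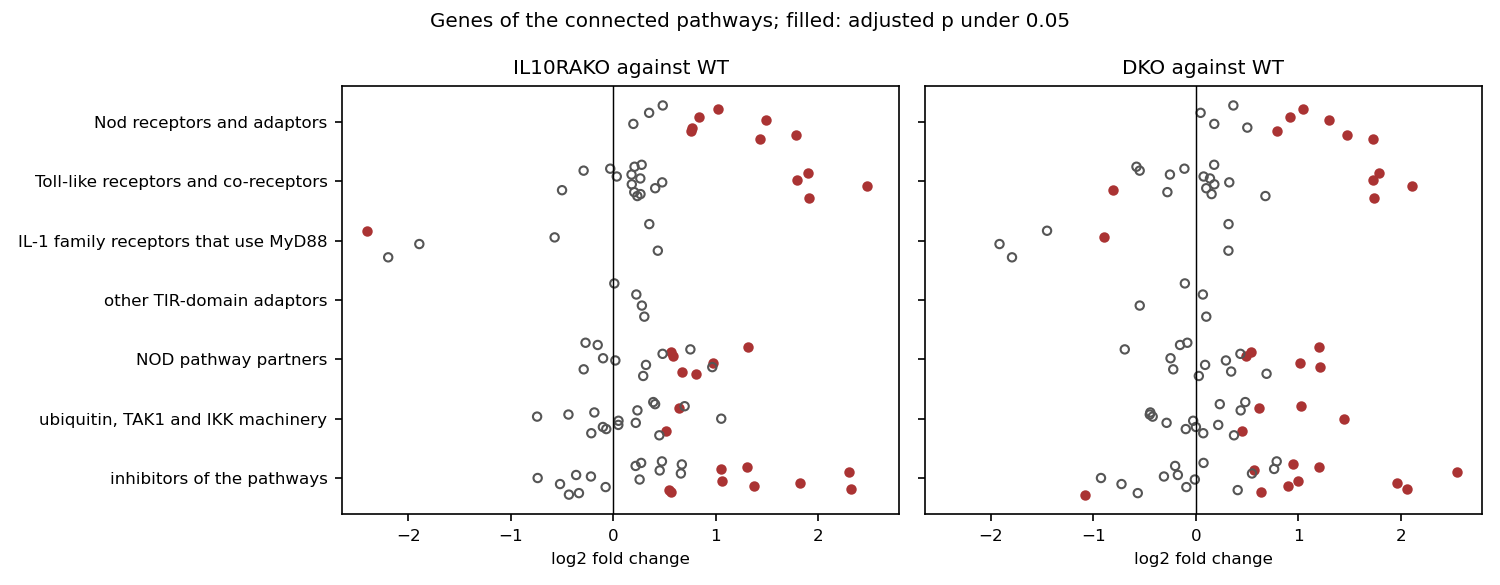
Log2 fold change (x axis) against WT of the 10 genes (top row) and of each tested gene of the 6 lists of connected genes, for IL10RAKO and DKO (n = 4 mice per genotype). Filled points have an edgeR adjusted p under 0.05, which holds for 6 of 16 NOD pathway partners and 9 of 23 inhibitors in IL10RAKO, all of them higher than in WT. It holds for 15.8% of all tested genes in IL10RAKO.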

How the data were processed

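The authors sorted CD45+, Ly6G-, CD103-, CD64+, CD11b+, MHCII+, Ly6C- cells, made SmartSeq v4 libraries and sequenced paired-end reads. Per the labels and the study's methods, reads were aligned to mm10 with STAR 2.5.1b, and the authors deposited, for 14 libraries, raw counts per gene, under capitalized names harmonized with biomaRt. The annotation, the strand setting and the treatment of reads with several alignments are not given in the sources used here. The authors also deposited edgeR pseudocounts, a score adjusted to a common library size, for 13338 genes in 12 libraries. Only the choice of these 12 libraries was taken from that table. No per-sample column was left unused.

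Genotypes were taken from the labels. The tests ran in edgeR 4.0.16 under R 4.3.3 (filterByExpr by genotype with a minimum count of 10, TMM, glmQLFit with the deviance of earlier versions, glmQLFTest), with 3 genotypes in a single fit. Adjustment of p-values followed Benjamini and Hochberg. Standard errors and 95% intervals come from the same fit. The p-values measure the spread between mice that the labels list as separate samples. The lowest chi-square per degree of freedom between libraries of a genotype was 30, so none was a duplicate. Exon lengths, positions and overlaps are from GENCODE vM21 (GRCm38, which is mm10), and figures were drawn with matplotlib 3.10.9. The 10 genes and all lists were chosen with earlier results of these data known. Genes named from the lists are up to 2 per direction with the smallest adjusted p among those called in IL10RAKO against WT, and the other list genes in the text were chosen after their values were seen. Alternatives were DESeq2 1.42.0, RLE size factors, library totals, other filters, fits of only the genotypes compared, 13 libraries, the bias-adjusted deviance, covariates for stromal markers and for *Xist*, and leaving out each mouse.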

Additional observations from a re-analysis of the deposited data

Results flagged for a closer look

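Levels were examined as log2(CPM + 1) in 40 groups of mice (each gene in each genotype, and in WT with mouse 11), and in 2 of them a single mouse lay far from the others by Dixon's ratio, the gap to the nearest mouse over the whole range. Chance alone gives about 5% of groups such a mouse. *Nod1* in the 5 WT mice had a ratio of 0.746, above the critical value of 0.71. WT mouse 11 was the highest there, at 6.68 (101.6 CPM), where the other WT mice lay between 5.12 and 5.51. *Ripk2* in the same 5 mice had a ratio of 0.763, with WT mouse 11 the lowest at 2.29 (3.88 CPM) and the others between 4.60 and 5.32. WT mouse 11 thus had the sensor *Nod1* at the level of the mice lacking *Il10ra* and its kinase *Ripk2* below all other libraries, from the library with the fewest counted reads and detected genes. No mouse of the 12 that entered the fit stood apart in this way in any of the 10 genes.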

How the results depend on the processing

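The number of the 10 genes called in IL10RAKO against WT was 4 with library totals in place of TMM, where the calls over all 13136 genes rose from 2076 to 2735, and 0 with a stromal marker covariate. In DKO against WT it was 1 with the stromal marker covariate. Under the other alternatives it was 6 or 7 in IL10RAKO, 5 or 6 in DKO and 0 in DKO against IL10RAKO. Leaving out each mouse gave 6 to 7, 6 to 6 and 0 to 0 calls in the same order. Library totals moved the median log2 fold change of all genes to -0.38 in IL10RAKO and -0.32 in DKO, and *Nod1*, at 1.12 and 1.47 there, moved down with it. The TMM factors left out there were 1.088 to 1.179 in the 4 WT libraries of the fit. They were 0.8508 to 1.013 in the IL10RAKO and DKO libraries, so the scaling itself differs by genotype. The calls other than that of *Myd88* held in all 12 fits that left out a mouse.

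Directions turned only for differences without a call. *Irak1* in IL10RAKO against WT was -0.11 with library totals and -0.0015 with 13 libraries, and in DKO against WT -0.0729 and -0.0185. *Irak4* in DKO against WT was -0.20 with library totals, -0.0022 with at least 10 reads in every library and -0.039 with the stromal covariate. *Irak1* in DKO against IL10RAKO was 0.0403 with library totals and 0.0106 with the *Xist* covariate. Leaving out each mouse gave -0.0077 to 0.18 for *Irak4* in DKO against WT. In DKO against IL10RAKO it gave -0.0498 to 0.12 for *Ripk2*, -0.0671 to 0.0508 for *Irak1*, -0.35 to 0.0207 for *Irak2*, -0.0872 to 0.21 for *Irak3*, -0.0666 to 0.14 for *Traf6* and -0.21 to 0.0731 for *Tollip*. Library totals leave out the TMM factors, which differ between WT and the knockout groups. The cause of the other changes was not tested. The IL10RAKO call of *Myd88* was also lost with library totals (0.45, edgeR adjusted p = 0.155), in a fit of only the 2 genotypes (0.77, edgeR adjusted p = 0.0716) and with the *Xist* covariate (0.80, edgeR adjusted p = 0.0581), and it held with 13 libraries (0.74, edgeR adjusted p = 0.0424). Over the settings that leave out no mouse, 272 log2 fold changes kept their direction and side of the threshold, 19 lost the threshold and 9 turned. No paired analysis was possible because the genotypes hold different mice and the labels give no number that pairs them. With 4 mice per genotype, the intervals between DKO and IL10RAKO leave room for log2 changes of up to -0.83.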
